A study of Homo sapiens with 2 samples.

Results

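The 10 genes described here are HK1, HK2, PFKM, PFKP, ALDOA, ALDOC, ENO1, ENO3, LDHA and LDHB. They encode 5 pairs of isozymes, alternative forms of an enzyme from separate genes, at 5 steps between glucose and lactate. They were chosen by name from the 36601 genes of the deposited count matrix, and all 10 were found there. The study differentiated HES2, an established human embryonic stem cell line, towards sinoatrial node-like pacemaker cells (SANLPC). All cells carried the same genotype as far as the labels state, and no treatment arm, time point or control culture was labelled. Live single cells were labelled with a barcoded antibody against CD34 and captured in droplets, so that transcripts and antibody tags were counted in the same cells (CITE-seq). The 2 samples of the series are the RNA library and the antibody-tag library of 1 culture, with all 14829 barcodes in common. With 1 culture there is no replicate and no test between cultures. Every interval below is a 95% interval for counting error alone.

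Glycolysis splits glucose into pyruvate and yields ATP without oxygen. Hexokinase (HK) phosphorylates glucose and holds it in the cell, phosphofructokinase (PFK) commits it to breakdown, aldolase (ALDO) splits the sugar, enolase (ENO) makes phosphoenolpyruvate, and lactate dehydrogenase (LDH) interconverts pyruvate and lactate. Muscle-type forms such as PFKM and ENO3 are known from striated muscle, and LDHB is the heart-type subunit while LDHA is the muscle-type subunit. Adult heart burns mainly fatty acids and takes up lactate, whereas fetal heart leans more on glucose.

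Of the barcodes, 11211 passed the limits of at least 1000 detected genes, at most 25% mitochondrial UMIs and at most 35000 RNA UMIs (unique molecular identifiers, 1 per captured transcript). Cardiomyocytes were cells with at least 2000 UMIs of the troponin gene TNNT2 per 1000000 RNA UMIs (CPM), and numbered 5516. Fibroblast-like cells (617) had TNNT2 under 1000 CPM and the collagen gene COL1A1 at 2000 CPM or more. Epithelial-like cells (4046) had both genes under 1000 CPM and at least 5 UMIs summed over VTCN1, GATA3, CLDN4 and WNT6, and 1032 cells met none of these rules. Median depths were 16209, 18537 and 17452 RNA UMIs per cell in the order given, and median mitochondrial shares were 11.8%, 5.20% and 5.82%. The names were checked against markers that the rules did not use. The sum of 10 sarcomere and calcium genes was 39932 CPM in cardiomyocytes against 1063 and 937 CPM in the other classes. The sum of 10 fibroblast genes was 15866 CPM in fibroblast-like cells against 765 CPM in cardiomyocytes and 5898 CPM in epithelial-like cells. The latter carried more LUM (684 against 448 CPM) and FBLN1 (1639.9 against 475 CPM) than fibroblast-like cells, while COL1A2, POSTN, PDGFRA and PDGFRB marked the fibroblast-like cells. The sum of 10 epithelial genes was 9767 CPM in epithelial-like cells and at most 1648 CPM elsewhere. Fibroblast-like cells also carried 252 CPM of 6 neural genes and 79.3 CPM of 6 endothelial genes, against at most 19.0 and 10.4 CPM in the other classes, with 2 genes of each list at 10 CPM or more, and the part of such cells in the values below was not tested.

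Cardiomyocyte transcripts were counted at a low level in every class. Each of the 10 cardiomyocyte markers was counted in the other classes at a low and similar fraction of its cardiomyocyte level. The fraction ran from 2.20% to 5.60% (median 2.82%) in fibroblast-like cells and from 2.09% to 4.20% (median 2.66%) in epithelial-like cells. Levels of other genes at or below these ranges are read as background, and where these UMIs come from was not tested.

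The upstream DNA is shown first, because the partners of the LDH pair differ there in an element through which glycolytic genes are known to answer low oxygen. RefSeq windows of the 250 bases before the annotated start of a gene (build GRCh38.p14) were found for all 10 genes. Each was searched on both strands for ACGTG, a form of the core of the element bound by hypoxia-inducible factors. These factors activate many glycolytic genes when oxygen is low. Other forms of that core were not searched, so a window without these letters may hold another form. Below, the core means ACGTG alone. The core occurred in the windows of LDHA, ALDOC, HK2 and ALDOA and in none of the other 6, against 18.5% of 35116 windows of the same length. Inside the palindrome CACGTG, which is also an E-box (CANNTG), the core is read on both strands, so matches that overlap were merged into sites. LDHA then had 3 separate sites, ALDOC and HK2 had 2 each and ALDOA had 1. A match is a description of letters and not a binding site. The annotated start need not be the start used in these cells, and the ENO3 window lies inside the annotated span of the gene. The windows below are those of the LDH pair and of ALDOC and ENO3, the members with the highest ratios of cardiomyocytes to the other classes. Capitals mark the core on either strand, as ACGTG, as its reverse complement CACGT, or as the palindrome CACGTG that holds both. The LDHA window (chr11:18394313-18394562, plus strand), the LDHB window (chr12:21657843-21658092, minus strand), the ALDOC window (chr17:28576896-28577145, minus strand) and the ENO3 window (chr17:4950302-4950551, plus strand) are given 5′ to 3′ along the strand of the gene.
LDHA: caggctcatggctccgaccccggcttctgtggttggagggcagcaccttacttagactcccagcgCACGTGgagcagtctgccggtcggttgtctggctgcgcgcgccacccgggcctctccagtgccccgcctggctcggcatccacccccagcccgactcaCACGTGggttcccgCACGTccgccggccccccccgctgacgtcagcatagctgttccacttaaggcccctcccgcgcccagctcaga
LDHB: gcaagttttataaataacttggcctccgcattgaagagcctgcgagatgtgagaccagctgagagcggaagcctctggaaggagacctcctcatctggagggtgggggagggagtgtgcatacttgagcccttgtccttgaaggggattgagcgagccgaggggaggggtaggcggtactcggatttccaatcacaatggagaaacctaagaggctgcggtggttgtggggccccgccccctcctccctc
ALDOC: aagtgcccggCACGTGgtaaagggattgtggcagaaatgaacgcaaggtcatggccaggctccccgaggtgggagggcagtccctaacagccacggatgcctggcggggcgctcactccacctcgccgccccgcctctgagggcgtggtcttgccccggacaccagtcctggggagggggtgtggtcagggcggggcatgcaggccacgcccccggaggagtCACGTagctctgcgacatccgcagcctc
ENO3: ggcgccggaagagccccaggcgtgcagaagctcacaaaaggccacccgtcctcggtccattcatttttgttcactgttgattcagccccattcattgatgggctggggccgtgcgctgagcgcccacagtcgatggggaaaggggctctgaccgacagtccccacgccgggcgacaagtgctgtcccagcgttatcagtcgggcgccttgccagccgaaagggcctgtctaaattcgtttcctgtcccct
The LDHA sites began 185, 87 and 73 bases before the start, and those of ALDOC 240 and 28 bases before it. The LDHB and ENO3 windows held no ACGTG on either strand. E-boxes, which myogenic factors among others bind, were in 6 of the 10 windows (HK1, ALDOA, ALDOC, ENO3, LDHA and LDHB) and in 61.8% of all windows. GC boxes (GGGCGG) were in 5 (HK2, PFKP, ALDOC, ENO1 and LDHB) and in 42.6% of all windows. The TATA box letters TATAAA were in the LDHB window alone and in 10.7% of all windows. The MEF2 element was in no member window and in 0.515% of all windows.

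Cardiomyocytes carried the most transcripts of the set. Summed over the 10 genes, the level was 2650.1 CPM in cardiomyocytes, 1369.5 CPM in fibroblast-like cells and 1193 CPM in epithelial-like cells. A gene was counted as higher or lower between classes at a ratio of at least 1.5 in that direction, if its mean over the 3 classes reached 10 CPM. HK2 stayed under that floor, which left 9 members. Against fibroblast-like cells 7 of the 9 were higher in cardiomyocytes, where 18.5% of all 9369 genes tested were higher, and none was lower, where 22.7% were. Against epithelial-like cells 8 of the 9 were higher (19.8% of all genes) and none was lower (26.3% of all genes). ALDOC and ENO3 reached the floor only through cardiomyocytes, the class in which they are counted as higher, so these counts do not support a difference by themselves. Between the other classes, 3 members were higher in fibroblast-like than in epithelial-like cells (16.9% of all genes) and 2 were lower (17.9% of all genes). The 3 were LDHA, PFKM and ALDOC, of which ALDOC was under 10 CPM in both classes and PFKM lost its call, at 1.49, in cells of 10000 to 25000 UMIs. The median log2 ratio of the members was 2.0 against fibroblast-like and 1.5 against epithelial-like cells, beside -0.06 and -0.12 over all genes.

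**Figure D1:**
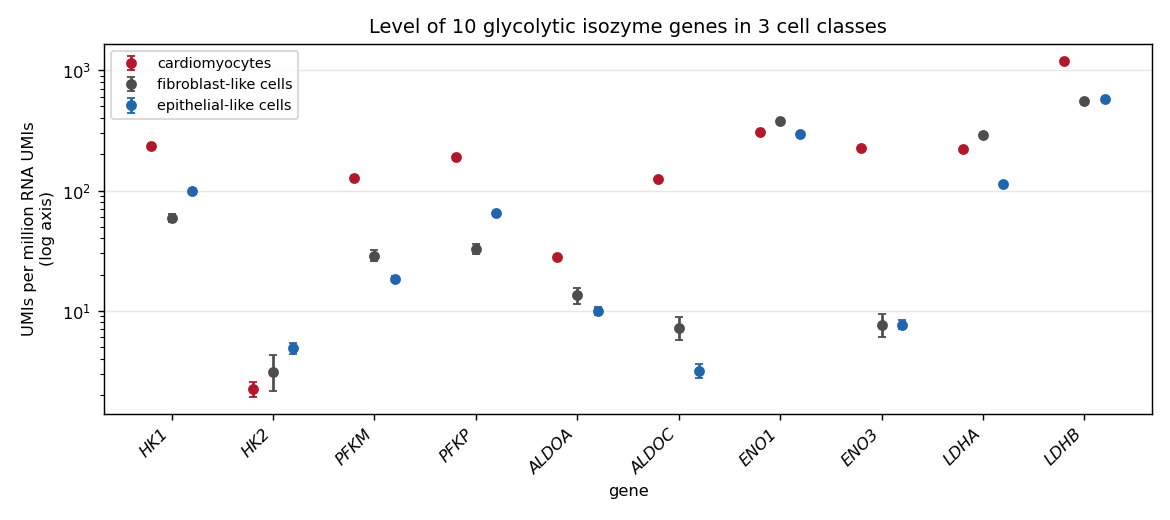
Level of each of the 10 genes (CPM, log axis) in cardiomyocytes, fibroblast-like and epithelial-like cells of 1 culture; bars are exact 95% Poisson intervals of the summed counts. ALDOC and ENO3 stand furthest apart between the classes, ENO1 lies between 294 and 375 in all 3, and HK2 lies under 5 in all 3.

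HK1, the widely expressed hexokinase that can bind mitochondria, made up most of the hexokinase UMIs in every class. It was counted at 235 CPM in cardiomyocytes (interval 232 to 239), 58.7 CPM in fibroblast-like cells (54.4 to 63.3) and 98.8 CPM in epithelial-like cells (96.5 to 101). The intervals did not overlap, and cardiomyocytes were 4.01 times (3.71 to 4.33) and 2.38 times (2.32 to 2.45) the other classes. HK2, the insulin-responsive form of adult muscle and of many tumours, was near the lower end of detection. It reached 2.23 CPM in cardiomyocytes (205 UMIs), 3.11 CPM in fibroblast-like cells (36 UMIs) and 4.86 CPM in epithelial-like cells (349 UMIs). HK2 thus made up 0.938% of HK1 plus HK2 in cardiomyocytes (0.814% to 1.07%), against 5.02% (3.54% to 6.88%) and 4.69% (4.22% to 5.20%). The cardiomyocyte share was lower by 4.08 and 3.75 percentage points, and the fibroblast-like minus epithelial-like difference of 0.330 points had an interval of -1.13 to 2.24 that includes 0.

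Both phosphofructokinase members were higher in cardiomyocytes, in different proportion to each other class. PFKM, the muscle form, was at 126 CPM in cardiomyocytes, 28.8 CPM in fibroblast-like cells and 18.5 CPM in epithelial-like cells. PFKP, the platelet form, was at 189, 32.7 and 64.5 CPM in the same order. Cardiomyocytes were 4.38 times (3.93 to 4.90) fibroblast-like and 6.85 times (6.47 to 7.25) epithelial-like cells for PFKM, and 5.79 times (5.23 to 6.42) and 2.93 times (2.84 to 3.03) for PFKP. The PFKM levels of the other classes, 22.8% and 14.6% of the cardiomyocyte level, lay above the background range. PFKP held 60.0% of the pair in cardiomyocytes (59.4% to 60.5%), so the muscle form was the smaller part there. The PFKP share was 53.2% in fibroblast-like cells (49.4% to 56.9%) and 77.8% in epithelial-like cells (76.7% to 78.8%). The difference from fibroblast-like cells, 6.81 points (3.13 to 10.5), was 2.45 points without the upper UMI limit and 13.2 points among cells outside the cell cycle. The liver form PFKL went the other way, at 18.2 CPM in cardiomyocytes against 44.1 and 51.6 CPM. Over the 3 genes PFKL therefore held 5.46% of the UMIs in cardiomyocytes, 41.7% in fibroblast-like cells, where it was the most counted form, and 38.3% in epithelial-like cells.

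The aldolase pair changed order between the classes. ALDOC, best known from brain, was at 125 CPM in cardiomyocytes (122 to 127), 7.16 CPM in fibroblast-like cells (5.70 to 8.87) and 3.18 CPM in epithelial-like cells (2.78 to 3.62). Cardiomyocytes were 17.4 times (14.0 to 21.9) and 39.3 times (34.5 to 45) the others. The epithelial-like level was 2.55% of that in cardiomyocytes, within the background range, and the fibroblast-like level was 5.74%, just above it. ALDOA, the form of muscle and of most tissues, was counted at only 28.2, 13.4 and 9.97 CPM. ALDOC held 81.6% of the pair in cardiomyocytes (80.9% to 82.2%), 34.9% in fibroblast-like cells (28.8% to 41.3%) and 24.2% in epithelial-like cells (21.5% to 27.0%). The 24.2% thus rests on ALDOC UMIs read as background, and the 34.9% on a level just above it. The ALDOA level is uncertain. A gene model beside ALDOA in the deposited gene list, AC093512.2, received 10, 2 and 2 UMIs in the 3 classes, and reads that fall on 2 overlapping models are usually not counted for either. Whether ALDOA lost reads this way was not tested. Such a loss would change the share in all classes, while the ALDOC levels themselves do not depend on it.

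Enolase showed the plainest contrast between members. ENO1, the form of most tissues, was at 306 CPM in cardiomyocytes (303 to 309.8), 375 CPM in fibroblast-like cells (363 to 386) and 294 CPM in epithelial-like cells (289.6 to 297). Its cardiomyocyte ratios of 0.818 and 1.04 stayed short of the limit in either direction. ENO3, the striated muscle form, was at 227 CPM in cardiomyocytes (224 to 230.4) against 7.59 CPM (6.09 to 9.35) and 7.67 CPM (7.05 to 8.34). Cardiomyocytes were 30.0 times (24.3 to 37.4) and 29.6 times (27.2 to 32.3) the other classes, whose levels of 3.34% and 3.38% lay within the background range. ENO3 held 42.6% of the pair in cardiomyocytes (42.2% to 43.0%), 1.99% in fibroblast-like cells and 2.55% in epithelial-like cells. The neuronal form ENO2 held under 1% of the 3 enolases in each class, at 0.724%, 0.895% and 0.442%.

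Lactate dehydrogenase set fibroblast-like cells apart. LDHB was the most abundant member in every class, at 1191 CPM in cardiomyocytes (1184 to 1198), 552 CPM in fibroblast-like cells (539 to 566) and 578 CPM in epithelial-like cells (573 to 584). Cardiomyocytes were 2.16 times (2.10 to 2.21) and 2.06 times (2.04 to 2.08) the others. LDHA was highest in fibroblast-like cells at 291 CPM (282 to 301), followed by cardiomyocytes at 219.8 CPM (217 to 223) and epithelial-like cells at 114 CPM (112 to 116). Fibroblast-like cells were 2.56 times (2.46 to 2.66) epithelial-like cells for LDHA, and cardiomyocytes 0.754 times (0.727 to 0.782) fibroblast-like cells, which stays short of the limit. LDHB held 84.4% of the pair in cardiomyocytes (84.2% to 84.6%), 65.5% in fibroblast-like cells (64.5% to 66.4%) and 83.5% in epithelial-like cells (83.2% to 83.9%). The difference of 19.0 points (18.0 to 19.9) from fibroblast-like cells kept its sign in every alternative run. The difference of 0.885 points (0.506 to 1.27) from epithelial-like cells did not, and was -1.90 points when only cells outside the cell cycle were compared. The 3 LDHA sites of the ACGTG core and their absence from the LDHB window, printed above, stand beside these values with no test of a link.

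**Figure D2:**
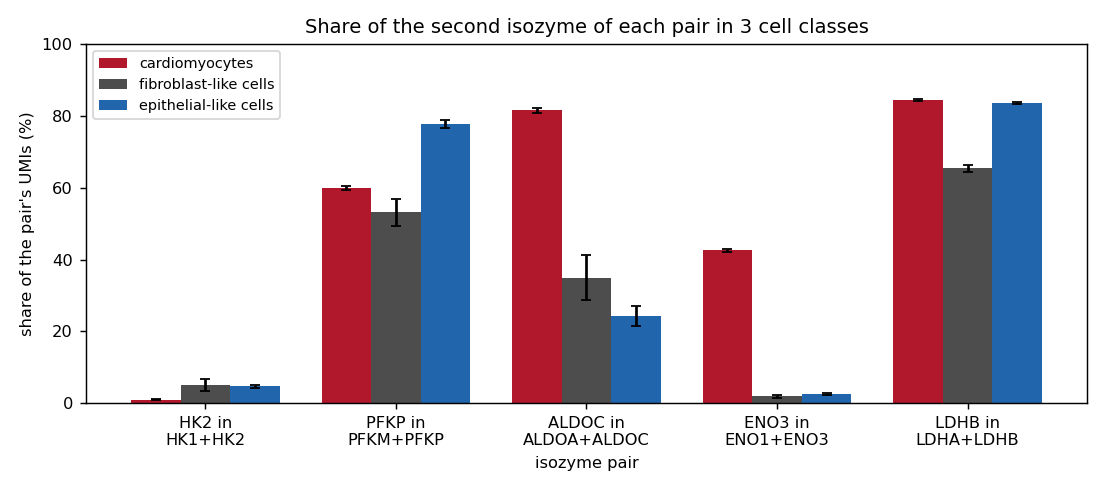
Share of the second isozyme in the UMIs of its pair (%, axis from 0) by class, with exact 95% binomial intervals. ENO3 holds 42.6% of its pair in cardiomyocytes and under 3% elsewhere, ALDOC passes from 24.2% to 81.6%, and the LDHB share is lowest in fibroblast-like cells. The levels of ENO3 outside cardiomyocytes and of ALDOC in epithelial-like cells lie within the background range.

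The same contrasts were visible cell by cell. Cells were thinned to 5000 RNA UMIs, and 289 cardiomyocytes, 20 fibroblast-like and 68 epithelial-like cells below that depth were left out. At that depth 58.8% of cardiomyocytes had at least 1 UMI of ENO3 (82.1% before thinning), against 3.85% of fibroblast-like and 3.82% of epithelial-like cells (12.2% and 12.1% before thinning). For comparison the abundant cardiomyocyte marker MYH6 was seen in 49.2% and 46.9% of those cells, so detection alone does not mark expression. ALDOC was seen in 43.6%, 3.02% and 1.58% of the classes, and LDHA in 63.1%, 68.3% and 38.5%. ENO1 and ENO3 were seen together in 44.4% of cardiomyocytes, ENO1 alone in 31.6% and ENO3 alone in 14.4%. In the 2164 cardiomyocytes with at least 10 UMIs of the enolase pair, the ENO3 share was 45.5% in the median cell, with 28.6% and 61.1% as quartiles. The LDHB share in 4903 such cardiomyocytes was narrower, with a median of 85.7% and quartiles of 78.4% and 91.8%. The LDH pair had more UMIs (LDHA 219.8 and LDHB 1191 CPM) than the enolase pair (ENO1 306 and ENO3 227 CPM). The part of counting error in these spreads was not tested. In fibroblast-like cells the median LDHB share was 66.7% with quartiles of 56.3% and 77.3% (454 cells).

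The isozyme shares were then followed across all kept cells in 7 ranges of TNNT2, from under 250 CPM to 8000 CPM and over. TNNT2 is the gene that defines the cardiomyocyte class, so these values describe how the shares run across its limit. The ENO3 share was 2.06%, 2.27% and 4.53% in the 3 ranges under 1000 CPM, 17.9% between 1000 and 2000 CPM, and 31.3%, 41.1% and 50.2% in the 3 ranges above. ENO1 stayed between 286 and 318 CPM over the 7 ranges while ENO3 ran from 6.68 to 289 CPM. The ALDOC share ran from 27.3% in the lowest range to 72.2% between 1000 and 2000 CPM and 82.7% in the highest. Within cardiomyocytes the PFKP share was lower at higher TNNT2, at 65.7%, 61.1% and 56.2%, and the LDHB share was higher, at 79.8%, 83.6% and 87.6%. The HK2 share ran from 5.13% in the lowest range to 0.578% in the highest. Cells just outside the cardiomyocyte limit (1500 to 2000 CPM, 211 cells) and just inside it (2000 to 2500 CPM, 219 cells) had ENO3 shares of 21.8% and 25.1%. Their shares were 73.4% and 77.5% for ALDOC, 65.2% and 69.1% for PFKP, 79.1% and 77.7% for LDHB, and 2.90% and 1.91% for HK2.

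**Figure D3:**
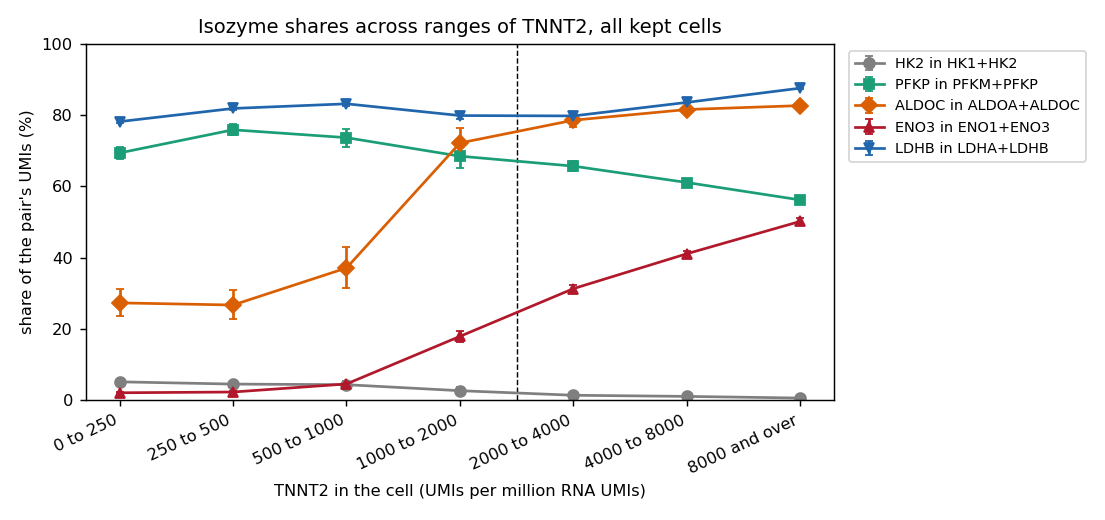
Isozyme shares (% of the UMIs of each pair) in all kept cells by range of TNNT2 in CPM; bars are exact 95% binomial intervals and the dashed line is the cardiomyocyte limit of 2000 CPM. The ENO3 share runs from 2.06% to 50.2% across the ranges, and the LDHB share stays between 78.2% and 87.6%.

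Within cardiomyocytes, cells high and low in CD34, the surface protein the study measured, were compared. The 25% of cardiomyocytes with the most CD34 antibody-tag UMIs (279 or more, 1380 cells) were set against the 25% with the fewest (at most 45, 1403 cells). None of 9 members was higher (1.40% of all genes) and none was lower (2.46% of all genes). Calls were rare among all genes, so their absence does not set the members apart. HK2, under the floor, was at 0.454 times (0.289 to 0.704) on 34 and 59 UMIs. Among the 9 members at the floor the lowest ratios were 0.808 for ALDOC (0.766 to 0.853) and 0.820 for PFKM (0.777 to 0.865). The highest was 1.15 for LDHA (1.11 to 1.20). The PFKP share was 64.6% in CD34-high and 57.4% in CD34-low cells, a difference of 7.27 points (5.65 to 8.88), and the other 4 shares differed by at most 3.29 points. The median depth was 17064 UMIs in the former and 14292 in the latter.

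Cardiomyocytes with NKX2-5, a factor of working heart muscle that the sinoatrial node core lacks, had a larger ENO3 share. The 465 cells with at least 2 UMIs of NKX2-5 were compared with the 2337 cells that had at least 2 UMIs of TBX3, a repressor of the working programme in the node, and none of NKX2-5. Of the 465 cells, 159 also had at least 2 UMIs of TBX3. None of 9 members was higher (2.80% of all genes) and none was lower (2.31% of all genes), again with few calls among all genes. HK2, under the floor, was at 2.21 times (1.41 to 3.40) on 32 and 72 UMIs. ENO3 was at 313 CPM in the NKX2-5 cells and 219.8 CPM in the TBX3 cells, a ratio of 1.43 (1.36 to 1.49), while ENO1 was at 263 and 310.1 CPM. The ENO3 share was accordingly 54.3% against 41.5%, a difference of 12.8 points (11.3 to 14.4). ALDOC was at 79.1 and 116 CPM, a ratio of 0.682 (0.628 to 0.740), which lies next to the limit and passed it, at 0.648, with cardiomyocytes cut at 4000 CPM of TNNT2. The sum of the 10 cardiomyocyte markers was 44896 CPM in the NKX2-5 cells and 41866 CPM in the TBX3 cells, and its part in the ENO3 difference was not tested.

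Cells in the cell cycle, taken as those with at least 500 CPM over 8 mitotic genes, were compared with the rest of their class. The LDHB share was lower and the PFKP share higher in cycling cells of all 3 classes. In cardiomyocytes (997 cycling, 4519 others) 1 member was lower, where 2.19% of all genes were lower, and none was higher, where 9.01% were. That member was ALDOC, at 70.0 against 138 CPM, a ratio of 0.506 (0.477 to 0.536). In fibroblast-like cells (111 and 506) 7 members reached the floor. PFKP was higher, at 52.5 against 27.1 CPM (9.24% of all genes were higher), and PFKM was lower, at 16.1 against 32.4 CPM (4.37% of all genes were lower). The PFKP share was thus 76.6% in cycling and 45.5% in the other fibroblast-like cells, a difference of 31.0 points (23.0 to 38.1) that rests on 134 UMIs of PFKP and 41 of PFKM in the cycling cells. In epithelial-like cells (1069 and 2977) LDHA was higher, at 181 against 85.2 CPM and a ratio of 2.12 (2.03 to 2.22), where 7.51% of all genes were higher. No other member that reached the floor was higher and none was lower (2.57% of all genes). PFKM came closest, at 13.7 against 20.5 CPM and a ratio of 0.669 (0.586 to 0.762), and passed the limit in 4 alternatives. LDHB was level there at 573 and 581 CPM, and its share was 76.0% in cycling cells and 87.2% in the rest. In the order cardiomyocytes, fibroblast-like and epithelial-like cells, the LDHB share was lower in cycling cells by 4.75, 5.93 and 11.2 points. The PFKP share was higher by 7.27 (5.80 to 8.71), 31.0 and 8.48 (6.28 to 10.6) points. PFKM was at 0.684, 0.496 and 0.669 times the rest and LDHA at 1.20, 1.38 and 2.12 times, so a call in 1 class is not shown to be particular to it, and the differences between classes were not tested. Cycling cells were deeper in every class (18622, 23249 and 20053 median UMIs against 15968, 17389.5 and 16843), and cycling cardiomyocytes had 31424 CPM of the 10 cardiomyocyte markers against 42057 CPM. The part of these in the differences was not tested.

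To see how the members varied inside the classes, cells were sorted into subsets by the pair of genes of which they had most UMIs. Of the subsets, 9 held at least 50 cells, and the UPK3B and PITX1 cells (7) were left out. Among the 4 cardiomyocyte subsets the ENO3 share was 50.5% in SERPINI1 and TRH cells (1441 cells), 48.1% in CAPN3 and LRRTM3 cells (283), 39.9% in KCNG1 and AARD cells (564) and 38.3% in A2M and SERPINF1 cells (1388). The intervals of neighbours in this order overlapped only between the first and the second, and the third and the fourth. The order of the LDHB share was similar, at 87.4%, 86.2%, 80.8% and 82.7% for the same subsets. The PFKP share ran the other way for SERPINI1 and TRH cells, at 54.1%, and was 64.9%, 67.9% and 60.8% in the others. PFKM at 159 CPM and LDHB at 1296 CPM were highest in the SERPINI1 and TRH cells, ALDOC at 148 CPM in the A2M and SERPINF1 cells. The CAPN3 and LRRTM3 cells, which had the most CD34 tag (median 424 UMIs), had the least ALDOC of the cardiomyocyte subsets at 88.9 CPM. Among the 4 epithelial-like subsets the ENO3 shares lay between 2.07% and 3.71%, the LDHB shares between 82.7% and 86.2%, and the PFKP shares between 73.7% and 81.8%.

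**Figure D4:**
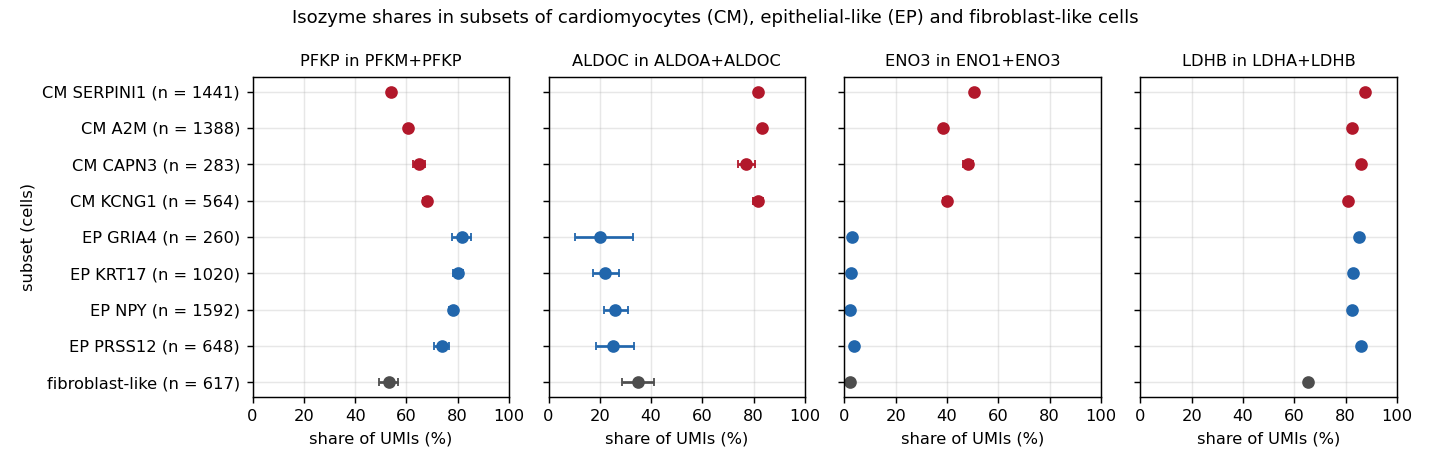
Share of PFKP, ALDOC, ENO3 and LDHB in their pairs (%) in 4 cardiomyocyte (CM), 4 epithelial-like (EP) subsets and fibroblast-like cells, each named by the first gene of its pair, with the number of cells; bars are exact 95% binomial intervals. The ENO3 and ALDOC shares part cardiomyocyte subsets from all others, and fibroblast-like cells have the lowest LDHB share at 65.5%.

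The genes whose levels ran most like each member over these 9 subsets were named as a description, since the subsets come from 1 library and differ mainly by class. ENO3 was most like TNNC1, UNC45B and MYH6, genes of the sarcomere and its assembly, each with a Pearson r of 0.999 on log2(CPM + 1). LDHB was most like MRPS28, COX8A and ATP5MC3, which encode proteins of the mitochondrial ribosome and of oxidative phosphorylation (0.999, 0.998 and 0.997). PFKM ran with EIF3K and EEF1A2 (0.998 each), and PFKP with CDC14B, GKAP1 and STRN (0.995, 0.993 and 0.992). ALDOC ran with MRPL34, AIFM1 and HSPB7 (0.997 each) and ALDOA with HSPB7 and HSPB1 (0.997 and 0.996). HK1 was most like AK3, SLC20A2 and LMO7 (0.997, 0.995 and 0.991). The genes that do not follow the cardiomyocyte class had other companions. LDHA was most like UNC119 and SRSF12 (0.992 and 0.991), ENO1 like BTBD6, ITPA and SNX7 (0.958, 0.950 and 0.922), and HK2 like BDKRB2, TRIM8 and CCDC80 (0.965, 0.961 and 0.956).

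The rest of the pathway shared the cardiomyocyte pattern of the members in part. Of 16 other glycolytic genes 8 reached the floor, and 6 of these were higher and 1 lower in cardiomyocytes against each other class. Over all genes 18.5% were higher and 22.7% lower against fibroblast-like cells, and 19.8% and 26.3% against epithelial-like cells. PGAM2, the muscle phosphoglycerate mutase, was at 225 CPM in cardiomyocytes against 5.09 and 4.82 CPM, ratios of 44.1 (34.2 to 58.0) and 46.6 (41.9 to 52.0). The other classes were at 2.27% and 2.15% of the cardiomyocyte level, which is background. PGAM2 thus reached the floor only through cardiomyocytes, where it is counted as higher, so that call does not support a difference by itself. PGAM2 held 66.3% of the UMIs of PGAM1 and PGAM2 in cardiomyocytes, and in cycling cardiomyocytes it was at 124 CPM, 0.499 times the rest. GPI, TPI1 and PKM were higher by ratios between 2.10 and 4.62. PFKL was the gene that was lower. GAPDH, often used as a reference gene, was at 3317 CPM in cardiomyocytes and 3305 CPM in epithelial-like cells but at 1838 CPM in fibroblast-like cells.

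Calls among glucose and lactate transporters went both ways, as they did among all genes. Of 19 genes of sugar and lactate transport 10 reached the floor. Against fibroblast-like cells 2 were higher and 3 lower in cardiomyocytes, and against epithelial-like cells 3 were higher and 4 lower, beside the shares of all genes given above (18.5% and 22.7%, 19.8% and 26.3%). SLC2A3 (GLUT3), a high-affinity glucose transporter, was at 76.4 CPM in cardiomyocytes, 64.7 CPM in fibroblast-like cells and 472 CPM in epithelial-like cells. SLC2A1 (GLUT1), the basal transporter, was at 25.4, 38.5 and 173 CPM, and SLC2A8 at 18.3, 16.8 and 83.8 CPM. Epithelial-like cells were thus highest for all 3, and cardiomyocytes were at 0.162, 0.147 and 0.218 times their level. The lower call of SLC2A1 against fibroblast-like cells, a ratio of 0.661, was lost in 5 alternatives, among them a ratio of 0.842 with the stricter COL1A1 limit. SLC2A4 (GLUT4), the insulin-responsive transporter of adult muscle, was under the floor, at 10.7 CPM in cardiomyocytes (985 UMIs) against 1.29 CPM (15 UMIs) and 0.348 CPM (25 UMIs). Over SLC2A1, SLC2A3, SLC2A4, SLC2A8 and SLC2A11, SLC2A4 made up 6.73% of the UMIs in cardiomyocytes and SLC2A3 made up 48.0%. The 10 epithelial genes used to check the names were counted in cardiomyocytes at 0.0606 (KRT7) to 0.173 (KRT8) times their epithelial-like level. The ratios of SLC2A1 and SLC2A3 lie within that range. What part of their cardiomyocyte UMIs is background was not tested, so these shares describe counted UMIs only. Among the lactate transporters, SLC16A3 (MCT4), known from cells that export lactate, was highest in fibroblast-like cells, the class with the most LDHA. It was at 38.7 CPM there against 9.47 CPM in cardiomyocytes and 2.33 CPM in epithelial-like cells. SLC16A7 (MCT2), a high-affinity carrier, was highest in cardiomyocytes at 37.9 CPM against 9.32 and 7.83 CPM. It reached the floor only through that class, and SLC16A3 only through fibroblast-like cells, so their calls do not support a difference by themselves. SLC16A1 (MCT1) stayed short of the limit, with cardiomyocytes at 0.938 and 1.36 times the other classes.

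**Figure D5:**
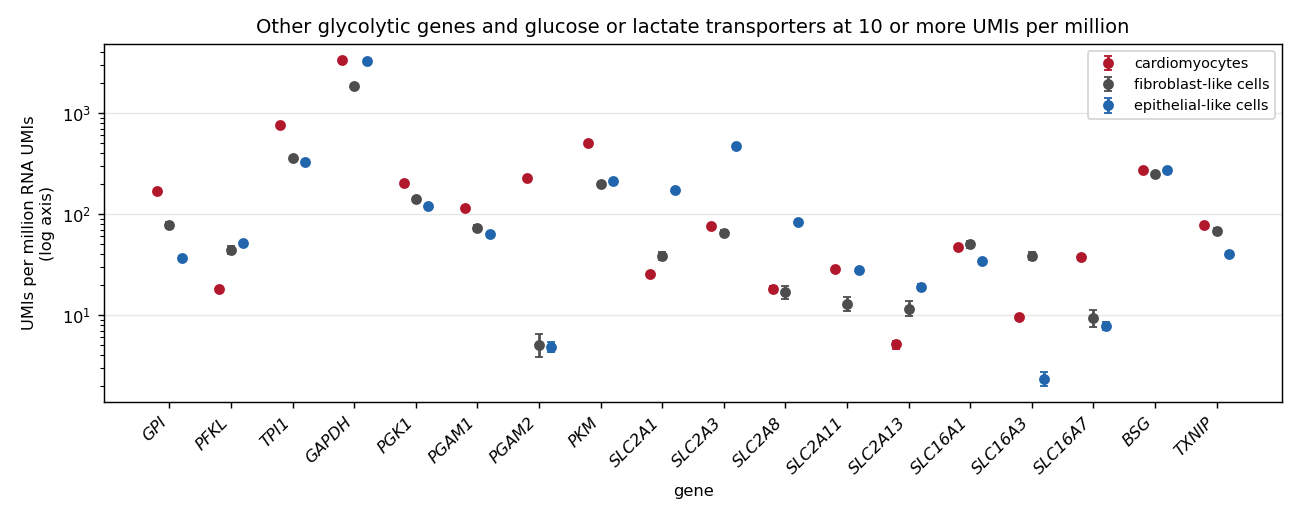
Level of other glycolytic genes and of glucose and lactate transporters with a mean of at least 10 CPM (CPM, log axis) in the 3 classes; bars are exact 95% Poisson intervals. PGAM2 is the gene furthest apart between the classes, PFKL is lower in cardiomyocytes, and SLC2A1, SLC2A3 and SLC2A8 are highest in epithelial-like cells.

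Of 18 genes that steer glycolytic flux or carry pyruvate into mitochondria 12 reached the floor, and 10 were higher and none lower in cardiomyocytes against each other class. Over all genes 18.5% were higher and 22.7% lower against fibroblast-like cells, and 19.8% and 26.3% against epithelial-like cells. Against epithelial-like cells, DLD (1.53) lost its call in 2 alternatives and PDP1 (0.670) became lower in 3, with a lowest ratio of 0.631. PDHA1, the catalytic subunit of pyruvate dehydrogenase, was at 469 CPM against 104 and 98.2 CPM, ratios of 4.51 and 4.78. The kinase PDK2, which inhibits that enzyme, was also higher, by 3.36 and 6.0 times, and the pyruvate carrier subunit MPC1 by 2.86 and 4.64 times. PDK4, the kinase induced by fasting and fat use, stayed under the floor at 5.85, 3.71 and 3.72 CPM. Of 17 genes known to respond to low oxygen 15 reached the floor, and these divided. Against fibroblast-like cells 4 were higher (18.5% of all genes) and 8 lower (22.7%) in cardiomyocytes. Against epithelial-like cells 4 were higher (19.8% of all genes) and 6 lower (26.3%). EGLN3 (2.88 and 10.1 times) and FAM162A (2.49 and 2.09 times) had the highest ratios in both comparisons, and NDRG1 (0.112 and 0.102 times) the lowest. Of 16 genes of glycogen, pentose phosphate and glycerol branches 10 reached the floor. Against fibroblast-like cells 6 were higher (18.5% of all genes) and 2 lower (22.7%). Against epithelial-like cells 5 were higher (19.8% of all genes) and 4 lower (26.3%). TKT of the pentose phosphate pathway had the lowest ratio in cardiomyocytes, at 0.264 times fibroblast-like and 0.144 times epithelial-like cells. UGP2 (2.74 times fibroblast-like cells) and PGM1 (6.14 times epithelial-like cells), both on the route to glycogen, had the highest.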

How the data were processed

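The values were counts of UMIs per gene and cell, deposited by the authors as raw whole numbers for RNA and for 1 CD34 antibody tag. Per the submitters' processing notes they were made with Cell Ranger 6.1.2 on GRCh38, from a 10x 3' version 3 library per the labels' protocols. No normalization was recorded. For each class the UMIs of a gene were added up, scaled to CPM and set against another class as a ratio. A 3' library gives 1 UMI per captured transcript, so no length scaling was made. The efficiency of capture of each transcript was not measured, and a pair share describes counted UMIs. The sums held 91958926 RNA UMIs in cardiomyocytes, 11593932 in fibroblast-like and 71800601 in epithelial-like cells. A count of 0 allows 0.0326, 0.259 and 0.0418 CPM (3 counts). Intervals were exact Poisson (levels), exact conditional (ratios), Clopper-Pearson (shares) and Newcombe (differences of shares), and cover counting error only. No p-value was computed.

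Barcodes removed numbered 3618, of which 1975 had too few genes, 1207 too many mitochondrial UMIs and 908 too many UMIs, with overlap. Doublets were left in below the upper UMI limit. Scrublet in scanpy 1.11.5 called 855 of the kept cells, and an alternative leaves them out. The calls were 10.3% of cardiomyocytes, 8.43% of fibroblast-like and 2.05% of epithelial-like cells. The cardiomyocyte rule sets no upper limit on COL1A1 or the epithelial genes. Subsets needed at least 5 UMIs of their gene pair. Cells near a limit are many: 161 and 439 cardiomyocytes lay within 10% of the upper and lower CD34 limits. Promoter windows and names came from RefSeq tables (GRCh38.p14), and the IDs of all 10 genes matched their symbols. Other software was numpy 2.4.6 and scipy 1.17.1. The genes, lists, classes and limits were chosen with earlier results of these data known. Named genes were all members, genes of the glycolysis, transport and regulation lists (SLC2A4, ENO2 and PDK4 were named under the floor after their values were seen), the extremes of the branch and hypoxia lists, and the 3 most-alike genes per member. A few of these are not reported here. In all, 14 alternatives were run.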

Additional observations from a re-analysis of the deposited data

How the results depend on the processing

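No paired analysis was possible because the 2 samples are libraries of the same cells of 1 culture. Among differences from cardiomyocytes, the share that turned was LDHB of cardiomyocytes minus epithelial-like cells (0.885 points): it was -0.301 with a mitochondrial limit of 15%, -0.316 in cells of 10000 to 25000 UMIs and -1.90 in cells under 500 CPM of cell cycle genes, 1.79 with a TNNT2 limit of 4000 CPM and 0.128 as the mean of per-cell CPM. The cause was not tested. The HK2 share of fibroblast-like minus epithelial-like cells (0.330, interval including 0) was -0.0577 at 4000 CPM of COL1A1. The other 9 differences of shares between cardiomyocytes and another class kept their sign under the 9 alternatives that bear on shares. The PFKP share minus fibroblast-like cells (6.81) was 2.45 without the upper UMI limit, 10.7 as the per-cell mean and 13.2 outside the cycle. Minus epithelial-like cells (-17.8) it was -15.9 at 15% mitochondrial UMIs, -16.3 as the per-cell mean and -16.5 outside the cycle. The ENO3 share minus fibroblast-like cells (40.6) was 42.2 without Scrublet's doublets, 39.2 without the UMI limit, 38.8 at 15% mitochondrial UMIs, 42.9 at 4000 CPM of TNNT2 and 41.8 outside the cycle. Minus epithelial-like cells (40.1) it was 41.6, 38.5, 38.2, 42.3 and 41.0 in the same order, 39.5 as the per-cell mean and 40.9 in cells of 10000 to 25000 UMIs. The LDHB share minus fibroblast-like cells (19.0) was 17.8 at 15% mitochondrial UMIs, 20.6 at 4000 CPM of COL1A1, 17.5 as the per-cell mean and 17.8 in cells of 10000 to 25000 UMIs.

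Members higher in cardiomyocytes numbered 5 and 6 at a floor of 50 CPM (main 7 and 8), and 7 against epithelial-like cells at a ratio of 2. Members higher in fibroblast-like than in epithelial-like cells (3) numbered 2 in both settings and in cells of 10000 to 25000 UMIs. With no floor HK2 counts too, as does ALDOC with the cycle in fibroblast-like cells: 3 members were lower in fibroblast-like than in epithelial-like cells, 3 passed with the cycle in fibroblast-like cells, 1 member was lower in cardiomyocytes than in epithelial-like cells, 1 changed with CD34, 1 with NKX2-5 and TBX3, and 2 with the cycle in epithelial-like cells. At a ratio of 2, 0 members were lower in fibroblast-like than in epithelial-like cells, 0 moved with the cycle in cardiomyocytes and 1 in fibroblast-like cells, where a floor of 50 CPM left 0. For NKX2-5 and TBX3, 1 member passed with a TNNT2 limit of 4000 CPM (ALDOC), in cells of 10000 to 25000 UMIs (ALDOC, 0.625) and as the per-cell mean (ENO3, 1.5). With the cycle in epithelial-like cells, 2 passed without doublets, at 15% mitochondrial UMIs, at 10 UMIs of the epithelial genes and as the per-cell mean, PFKM being added (0.637 to 0.666). Scaling to nuclear genes moved the median log2 ratio of all genes from -0.06 to 0.05 against fibroblast-like and from -0.12 to -0.02 against epithelial-like cells, and no member ratio moved by over 1.5 times in the 11 alternatives that bear on ratios. PGK1 (1.46 times fibroblast-like cells) passed the limit in 5 alternatives. All values rest on 1 culture, and the smallest sums (36 UMIs of HK2 and 83 of ALDOC in fibroblast-like cells) limit what can be seen there.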
